A study of Zea mays with 10 samples.

Results

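In the maize mutant *lbl1*, 236 well-expressed genes without a name in the deposited expression table had at least 2 times their wild-type transcript level. They were chosen by 3 conditions: a level of at least 20 RPKM in wild type, a ratio of *lbl1* over wild type of 2 or more, and no entry in the column of gene names. RPKM is a read count corrected for transcript length and for the size of the library. Of 109874 genes listed, 9772 met the conditions on name and level, and the 236 are 2.42% of these, with an exact (Clopper-Pearson) 95% interval of 2.12 to 2.74% that covers counting error only. The 4 genes of the *ARF3* family without a name in the table were left out, 2 of which would have passed. The chosen genes are called doubled here, which names the rule and is not the outcome of a test. Their levels and ratios were used to choose them and are given as a description.

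RNA was sequenced from vegetative apices of 2-week-old plants, each apex holding the meristem with at most 5 leaf primordia. Wild type is B73, the inbred line behind the maize reference genome, and the mutant carries the *lbl1-rgd1* allele after 3 or more rounds of crossing into B73. There were 2 samples per genotype, but the table holds 1 value per genotype, so no SD can be given, no replicate check is possible, and no ratio below can be set against the spread between samples. DNA carried along with the mutant allele cannot be told apart from the mutation itself in this design. In bulk tissue, a larger share of cells of one type and more RNA per cell cannot be told apart either.

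LBL1 is the maize SGS3 protein, which works with an RNA-dependent RNA polymerase to turn cleaved precursor transcripts into double-stranded RNA. The trans-acting small interfering RNAs cut from it include those that limit the transcripts of *ARF3* genes, and through them the upper and lower sides of the leaf are kept distinct. Genes outside the *ARF3* family that stand higher in such a mutant can lie several steps away from the small RNAs. The values below describe which genes these were, and do not place them in that pathway.

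The *lbl1* transcript itself (GRMZM2G020187) stood at 301 RPKM in wild type and at 226 in *lbl1*. Of 5 marker genes of the shoot meristem, 3 were found by name, and they summed to 115 RPKM in wild type and 190 in *lbl1*. The homeobox genes *kn1* and *lg3* were at 69.3 and 123 RPKM and at 25.6 and 51.3 RPKM, while *fea2*, a receptor gene that limits the size of the meristem, was lower in *lbl1* at 20.3 and 15.8 RPKM. For leaf primordia, 2 of 8 markers were found in 3 rows, summing to 44.2 and 40.4 RPKM, and the *rs2* gene, a repressor of such homeobox genes in leaf primordia, was at 39.0 RPKM in each genotype. The sum rests mostly on *rs2*, and the pair of rows named *wox3a* were lower in *lbl1*, at 2.67 and 0.38 RPKM and at 2.54 and 1.01 RPKM. Markers of differentiated leaf reached at most 3.84 RPKM in wild type and 6.32 in *lbl1* (3 of 9 found), with the phosphoenolpyruvate carboxylase gene *pep1* listed at 0 in each. Of the root markers, 2 of 4 were found, *rtcs* at 0.24 and 0.35 RPKM and *rth1* at 43.5 and 38 RPKM. The apices thus carried meristem and primordium transcripts, and the meristem sum was higher in *lbl1*, whose part in the doubled genes was not tested.

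The doubled genes covered a wide range of levels. In wild type they ran from 20.2 to 1374 RPKM with a median of 41.5, which is close to the median of 41.1 RPKM over all 9772 genes. In *lbl1* they ran from 41.3 to 3216 RPKM with a median of 118, against 39.3 RPKM over all 9772. Their median ratio was 2.56 and that of all 9772 genes 0.928. On the log2 scale the median of the doubled genes was 1.36, or 1.46 relative to the median of −0.10 of the 24760 genes that reached 1 RPKM in each genotype. Most stood not far above the limit, with 163 of 236 below a ratio of 3, while 15 were at 5 or more and 3 of those above 10.

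**Figure D1:**
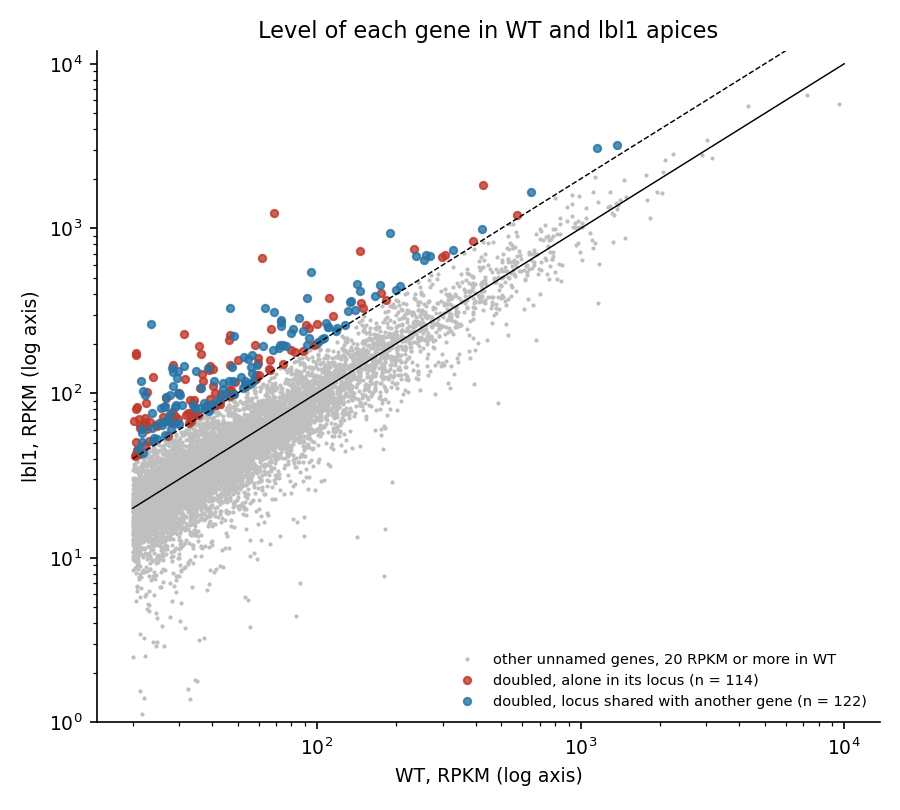
RPKM in *lbl1* against RPKM in wild type (WT), both on log axes, 1 point per unnamed gene at 20 RPKM or more in wild type. The solid line marks equal levels and the dashed line a ratio of 2; red points are the 114 doubled genes alone in their locus and blue points the 122 that share it, which lie intermingled along the dashed line, and 187 other genes under 1 RPKM in *lbl1* fall outside the plot.

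The share of doubled genes did not follow the wild-type level. It was 2.63% of the 2892 genes at 20 to 30 RPKM, 2.36% of the 2292 genes at 50 to 100 RPKM and 2.26% of the 177 genes at 500 RPKM or more, where only 4 genes were counted. The exact 95% intervals of all 6 level classes held the value of 2.42% for the whole set. The opposite side was larger, since 680 of the 9772 genes (6.96%) had a ratio of 0.5 or less, 168 of them listed at 0 in *lbl1*. This comparison is not symmetrical, because the minimum of 20 RPKM was set on wild type. With the minimum set on *lbl1* instead, 741 unnamed genes were at 2-fold or more or at 0 in wild type, and 166 had a ratio of 0.5 or less. How many unnamed genes reached that minimum in *lbl1* is not given here. These 2 counts thus have no share and are not set against the percentages above. Among the 450 genes with a name at 20 RPKM or more in wild type, 21 (4.67%) were at 2-fold or more. These 21 include GRMZM2G437460, at 45.2 and 138 RPKM, which the authors list as the *ARF3* gene *arf3d*. *ARF3* genes were left out of the unnamed set, so the 2 shares rest on unlike sets.

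Values close to the limits show how narrowly some genes were taken in. Just inside the ratio limit were GRMZM2G127949, at 21.76 and 43.53 RPKM, and GRMZM2G125668, at 38.84 and 77.82 RPKM. Just outside it were GRMZM5G803880, at 37.89 and 75.73 RPKM, and GRMZM5G815619, at 119.2 and 237.7 RPKM. The pairs on the inner and outer side had ratios of 2.000 and 2.004, and of 1.999 and 1.995, so that they are practically the same. Nearest to the level limit were GRMZM2G013957, at 20.25 RPKM in wild type and 67.59 in *lbl1*, and GRMZM2G044198, at 20.40 and 41.28 RPKM. Left out by the same limit were GRMZM2G533769, at 19.99 and 41.44 RPKM, and GRMZM2G410815, at 19.96 and 46.18 RPKM.

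GRMZM2G333337 on chromosome 7 (2721941 to 2730093) had the largest ratio, at 68.6 RPKM in wild type and 1234 in *lbl1*, which is 18.0-fold. It shares its locus with no other gene, and the nearest expressed genes on either side did not stand with it. GRMZM2G033027, which ends 892 bp before it, was at 12.2 and 17.5 RPKM, and AC191704.3_FG008, which begins 7951 bp behind it, was at 36.8 and 23.6 RPKM. None of these 3 genes has a name or a role in the sources used here.

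GRMZM2G083197 on chromosome 7 (94022619 to 94026990) was at 23.5 and 263 RPKM, an 11.2-fold difference, but it overlaps GRMZM2G083058, which was at 72.4 and 142 RPKM. GRMZM2G559030 on chromosome 5 (108824946 to 108825039), at 61.6 and 659 RPKM, and GRMZM2G548735 on the same chromosome (150295259 to 150295472), at 20.5 and 176 RPKM, stood 10.7-fold and 8.60-fold higher. These last 2 loci span only 94 and 214 bp. GRMZM2G312877 on chromosome 8 (80292354 to 80295000) followed at 20.6 and 171 RPKM, which is 8.30-fold, and GRMZM2G127350 on chromosome 6 (153314431 to 153318770) at 31.4 and 228 RPKM, which is 7.24-fold. Each lies alone in a locus of more than 2 kb, and their nearest expressed neighbours had ratios of 0.911 and 0.913 for the first and of 1.57 and 1.02 for the second.

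The other 6 of the 12 largest ratios lay between 5.23 and 7.04. Of these, GRMZM2G101268 (46.7 and 329 RPKM), GRMZM5G809636 (95 and 546 RPKM) and GRMZM2G033644 (21.4 and 119 RPKM) overlap another gene. GRMZM2G007939 (35.8 and 192 RPKM), GRMZM2G122059 (23.9 and 126 RPKM) and GRMZM2G352618 (28.4 and 149 RPKM) do not, and of these GRMZM2G122059 spans 188 bp. Of the 12, then, 5 are single genes in a locus of 300 bp or more, 3 are single genes in a shorter locus and 4 share their locus.

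The most abundant doubled transcripts were largely other genes, and apart from GRMZM2G333337 the 12 highest in *lbl1* had ratios of 2.10 to 5.05. GRMZM2G588961 on chromosome 4 (199076122 to 199077395) was at 1374 and 3216 RPKM, and GRMZM2G011523 on chromosome 3 (23904351 to 24095931) at 1152 and 3094 RPKM. The first overlaps GRMZM5G849427, which was more abundant still at 7257 and 6468 RPKM. The second lies in a listed locus of 191581 bp with 3 other genes, and its ID belongs to 2 separate entries in RefSeq, so its value may cover more than 1 copy.

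Of the 12 highest levels in *lbl1*, 4 were single genes in a locus of 300 bp or more. These were GRMZM2G333337, GRMZM2G064136 on chromosome 5 (159683411 to 159730650) at 572 and 1204 RPKM, GRMZM2G112795 on chromosome 4 (20506351 to 20509895) at 391 and 841 RPKM, and GRMZM2G036262 on chromosome 2 (6458506 to 6459190) at 234 and 754 RPKM. AC233788.2_FG002 (427 and 1839 RPKM) and AC221037.3_FG001 (145 and 733 RPKM), both on chromosome 8, span 150 and 167 bp. GRMZM2G305035 on chromosome 9 (139187765 to 139189585) was at 328 and 745 RPKM and shares its locus with *his2a1*, a histone H2A gene, which was at 1474 and 873 RPKM. The remaining 3, GRMZM2G550979, GRMZM5G866914 and GRMZM2G181371, also share a locus.

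**Figure D2:**
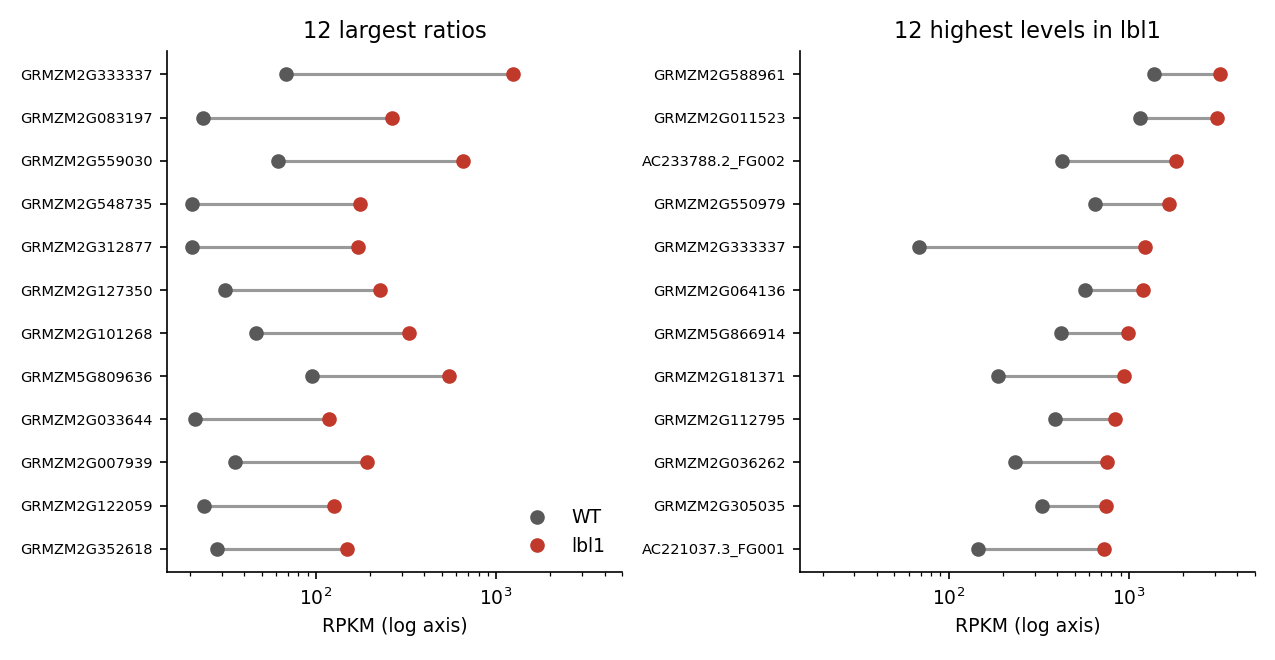
Levels in wild type (WT, grey) and *lbl1* (red) as RPKM on a log axis for the 12 doubled genes with the largest ratios and the 12 with the highest levels in *lbl1*, 1 value per genotype. GRMZM2G333337 is the only gene on both sides and has the longest line, from 68.6 to 1234 RPKM.

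Few of these genes can be given a role. RefSeq entries (assembly Zm-B73-REFERENCE-NAM-5.0) carried the IDs of 82 of the 236 doubled genes (34.7%), against 6681 of all 9772 (68.4%) and 209 of the 680 genes at 0.5-fold or less (30.7%). Of the 82, 7 had a name beyond a locus, clone or marker number, as had 697 of the 6681 matched among all 9772. Put the other way, 1.23% of the matched genes were doubled and 4.98% of the 3091 that had no match, and for a ratio of 0.5 or less the shares were 3.13% and 15.2%, so a low rate of matches was not particular to the doubled genes. Function lists matched to the names could therefore sort only a handful. Of 19 lists, 10 held no gene at 20 RPKM or more and could hold no doubled gene, and 8 held 1 or more such genes but no doubled one. The list for jasmonate and wound response held 3 doubled genes among 11 at 20 RPKM or more, and since the lists found genes mainly where a family is named, nothing is read from its standing alone.

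All 3 belong to the TIFY family. Many TIFY proteins are JAZ proteins, which bind and hold back transcription factors of the jasmonate response until the hormone has them degraded; in *Arabidopsis* most JAZ genes are themselves switched on by jasmonate and by wounding. *TIFY27* (GRMZM2G089736, chromosome 7, 165456774 to 165459185) had 59.7 RPKM in wild type, and 163 in *lbl1* made it 2.73-fold higher. *TIFY4* (GRMZM2G445634, chromosome 1, 16792359 to 16793281) was at 29.6 and 69.3 RPKM, or 2.34-fold. *TIFY25* (GRMZM2G116614, chromosome 7, 121224043 to 121226178) was at 34.5 and 74.7 RPKM, or 2.16-fold. Each lies alone in its locus, so none of these values was divided with an overlapping gene.

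The rest of the family was examined after these values had been seen. RefSeq names placed 21 genes of the table in it, and 19 of them had at least 1 RPKM in each genotype. The 3 doubled genes, which led to the family, are left out of the counts that follow. Of the 16 others, 2 were at 2-fold or more and none at 0.5-fold or less. Of all genes at that level, doubled genes included, 6.36% were at 2-fold or more. With so few genes nothing is read from the difference. A further 8 of the 16 were higher in *lbl1* by less than 2-fold and 6 were lower. The median log2 ratio of the 16 was 0.34, against −0.10 over all genes. The genes are related copies of one family and not replicates.

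The other 2 TIFY genes past 2-fold were below 20 RPKM in wild type. The gene named both *TIFY2* and *TIFY3* (GRMZM5G838098) was at 4.30 and 19.8 RPKM, and *TIFY20* (GRMZM2G173596) at 4.17 and 14.6 RPKM. The first lies on chromosome 1 between *TIFY1* and *TIFY4*, in a stretch from 16776989 to 16793281 that holds all 3 genes. *TIFY1* (GRMZM2G343157), the remaining gene of that cluster, was at 2.80 and 3.98 RPKM, so the 3 neighbours differed in both level and ratio.

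Below 2-fold, *TIFY28* (GRMZM2G036351) was at 26.8 and 49.0 RPKM, *TIFY15* (GRMZM2G005954) at 37.4 and 60.7 RPKM and *TIFY16* (GRMZM2G101769) at 19.8 and 30.7 RPKM. The most abundant member in wild type, *TIFY12* (GRMZM2G086920), was lower in *lbl1* at 202 and 140 RPKM, as was *TIFY23* (GRMZM2G080509) at 62.8 and 33.7 RPKM. The gene named *TIFY6* and *TIFY7* (GRMZM2G117513, chromosome 1, 69886841 to 69889367) was at 77.1 and 135 RPKM, and it overlaps GRMZM5G830635, a doubled gene without a name that was at 237 and 678 RPKM.

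**Figure D3:**
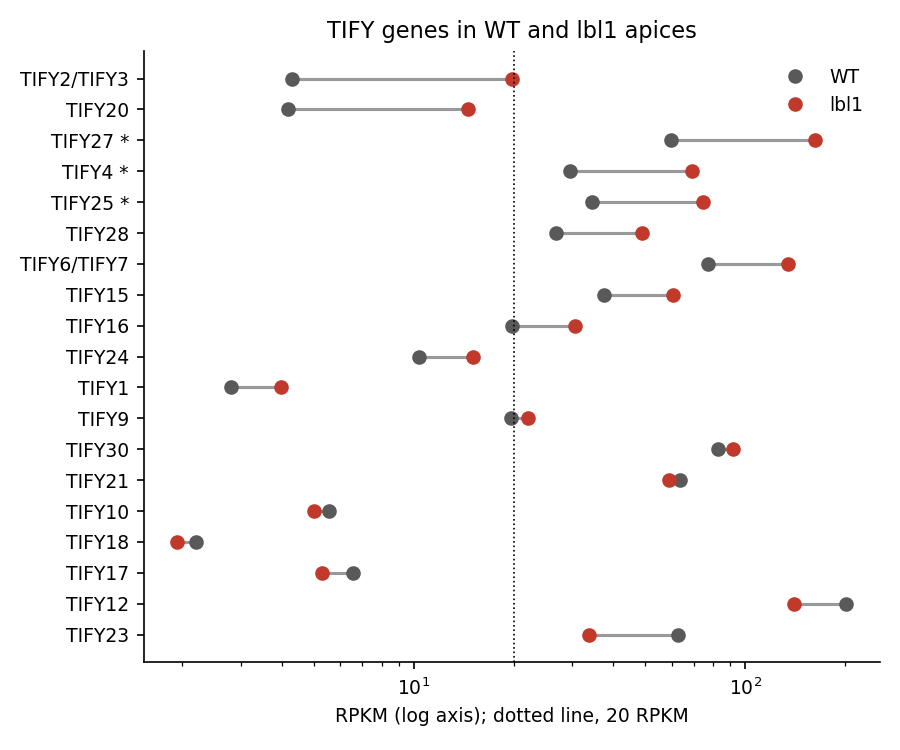
RPKM (log axis) of the 19 TIFY genes with at least 1 RPKM in each genotype, in wild type (WT, grey) and *lbl1* (red), ordered by ratio; the dotted line marks 20 RPKM and asterisks mark the 3 doubled genes. The 13 genes above *TIFY21* have the red point to the right, from *TIFY2/TIFY3* (4.6-fold) down to *TIFY30* (1.11-fold), and the 6 from *TIFY21* down have it to the left.

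The 4 other named doubled genes were also picked out after their values were seen. *SnRK2.7* (GRMZM2G155593, chromosome 2, 50808694 to 50817094) encodes a kinase of the SnRK2 family, whose members act in the response to abscisic acid and to osmotic stress. It was at 72.6 and 195 RPKM, a 2.68-fold difference, but its locus also holds GRMZM5G813989, which was at 49.4 RPKM in wild type and listed at 0 in *lbl1*. Of the 7 SnRK2 genes found by name, *SnRK2.5* (GRMZM2G110908) was at 11.7 and 29.4 RPKM and *SnRK2.1* (GRMZM2G035809) at 21.0 and 7.39 RPKM. The remaining 4 had ratios of 0.981 to 1.63.

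*HRGP* (GRMZM2G168651, chromosome 2, 54763050 to 54764823), a gene for a hydroxyproline-rich glycoprotein of the cell wall, was at 306 and 692 RPKM. This made it 1 of the 20 doubled genes with 500 RPKM or more in *lbl1*. A second gene with the same name in RefSeq (GRMZM2G099780) was at 18.8 and 20.9 RPKM. *MTD1* (GRMZM2G090865) was at 20.8 and 43.2 RPKM, next to 9.30 and 11.9 RPKM for another gene of that name (GRMZM2G332560). The gene named *alt* (GRMZM2G088064, chromosome 5, 37229141 to 37234332) was at 36.2 and 173 RPKM, or 4.79-fold.

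Sharing a locus was much more frequent among the doubled genes than among the genes they were drawn from. The table gives overlapping genes a common span, and in such a locus the reads could be divided between the genes. Of the 236 doubled genes, 122 (51.7%) shared their locus, against 2715 of all 9772 (27.8%) and 226 of the 680 genes at 0.5-fold or less (33.2%). In shared loci 4.49% of the genes were doubled, with an exact 95% interval of 3.75 to 5.34%, and in loci with 1 gene 1.62%, with an interval of 1.33 to 1.94%. The intervals do not overlap, though neighbouring genes are not independent draws. The median ratio was 2.62 for the 122 genes in shared loci and 2.53 for the 114 others. Both sets were chosen by a ratio of 2 or more, so nothing is read from how close these medians are.

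The gene on the other side of the overlap mostly stayed near its wild-type level. For 111 of the 122, the partner with the highest wild-type level had at least 1 RPKM in each genotype, and its median ratio was 0.992. For 1595 other genes at 20 RPKM or more in shared loci, such partners had a median ratio of 0.961. A partner median near 1 was thus not particular to the doubled genes. Of the 111 partners, 96 lay between 0.5-fold and 2-fold, 57 were lower in *lbl1*, and 15 were at 2-fold or more. Since 6 of these 15 are doubled genes themselves, 9 of the 105 others (8.57%) were at 2-fold or more. For the other genes at 20 RPKM or more in shared loci, with doubled genes left out as partners as well, it was 7.16% (109 of 1522). GRMZM5G809636 on chromosome 5 (75935116 to 75939320), at 95 and 546 RPKM, overlaps GRMZM2G019121, which was at 93.3 and 104 RPKM. GRMZM2G101268 on chromosome 1 (208293160 to 208294483), at 46.7 and 329 RPKM, overlaps GRMZM2G401147, which was at 1785 and 1486 RPKM. The ratios were 5.74 and 7.04 for the doubled genes and 1.12 and 0.833 for their partners.

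**Figure D4:**
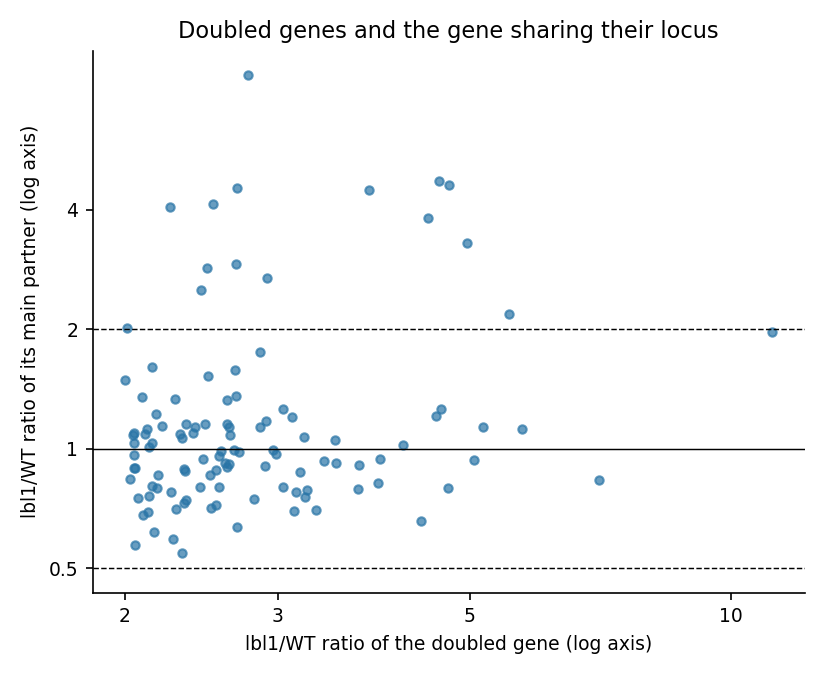
Ratio of *lbl1* over wild type for the main partner (the overlapping gene with the highest wild-type level) against the ratio of the doubled gene itself, both on log axes, for the 111 doubled genes whose main partner had at least 1 RPKM in each genotype; horizontal lines mark ratios of 0.5, 1 and 2. Most partners lie close to the line at 1 (median 0.992), and 15 lie at 2 or above.

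Some partners have names and known roles. GRMZM2G327192 (21.8 and 103 RPKM) overlaps *GLN2*, a glutamine synthetase gene, which was at 21.7 and 31.6 RPKM. GRMZM2G574218 (142 and 458 RPKM) overlaps *HMT-3*, a homocysteine methyltransferase gene, at 218 and 164 RPKM. GRMZM5G866914 (421 and 992 RPKM) overlaps *idh2*, an isocitrate dehydrogenase gene, at 223 and 257 RPKM. The named gene of these 3 loci was within 2-fold of its wild-type level each time. *CAT3*, a catalase gene, went with its partner, at 5.93 and 26.9 RPKM beside GRMZM5G815545 at 27.7 and 74.6 RPKM. The 7 partners with a name in the deposited table had a median ratio of 0.895. Of these, 2 were at 2-fold or more, *CAT3* and *PRP* (GRMZM2G304378), the latter at only 0.378 and 2.47 RPKM. GRMZM2G443655, named *PDIL5-1* in RefSeq, was also higher, at 11.2 and 46.4 RPKM beside GRMZM2G568648.

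In 5 shared loci a partner with 5 RPKM or more in wild type was listed at 0 in *lbl1*. Besides the *SnRK2.7* locus these included GRMZM2G563020 on chromosome 2 (36.3 and 108 RPKM), whose partner AC225563.3_FG004 was at 33.0 RPKM in wild type, and GRMZM2G154523 on chromosome 4 (62.3 and 193 RPKM), whose partner GRMZM5G871801 was at 16.1 RPKM. The other 2 were GRMZM5G827611 and GRMZM5G824210, whose partners were at 17.9 and 5.16 RPKM. Here the level of 1 gene stood higher while the gene in the same span was listed at none. Whether reads passed from one gene to the other in these loci was not tested. How often a partner was listed at 0 beside the other genes in shared loci was not counted. The 5 loci are thus not read as a trait of the doubled genes. The authors' test failed for GRMZM2G563020.

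In 3 loci both genes were doubled. GRMZM2G055802 and GRMZM5G853702 on chromosome 1 (293997056 to 293998873) were at 29.7 and 28.3 RPKM in wild type and at 137 and 134 RPKM in *lbl1*. GRMZM2G080466 and GRMZM5G855064 on chromosome 2 (189499628 to 189501644) were at 68.9 and 72.7 RPKM and at 309 and 278 RPKM. Levels within each of these pairs were almost equal, and the genes of a pair have the same listed span. The third pair was GRMZM2G011523 with GRMZM5G825287, the latter at 40.5 and 118 RPKM. Of the doubled genes, 65 (27.5%) had an ID of the GRMZM5G series, against 11.3% of all 9772, and 56 of these 65 shared a locus. How many of all 1109 GRMZM5G genes among the 9772 shared a locus was not counted. The 56 are thus not read as a trait of the doubled genes.

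The span of the locus was the other feature that set the doubled genes apart, and the genes at 0.5-fold or less shared it. Among genes alone in their locus, 7.89% of those with a span under 300 bp were doubled (27 of 342), 5.06% of those from 300 to 999 bp, 1.92% from 1000 to 2999 bp, 0.767% from 3000 to 5999 bp and 0.681% of those with 6000 bp or more (12 of 1763). The share at 0.5-fold or less went from 54.7% to 1.08% over the same classes. In short loci a larger share of genes was thus past 2-fold in either direction, and in single loci of 3000 bp or more the doubled genes were 34 of 4631 (0.734%). The median span of the doubled genes was 3197 bp, of all 9772 genes 4188 bp and of the genes at 0.5-fold or less 1626 bp.

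**Figure D5:**
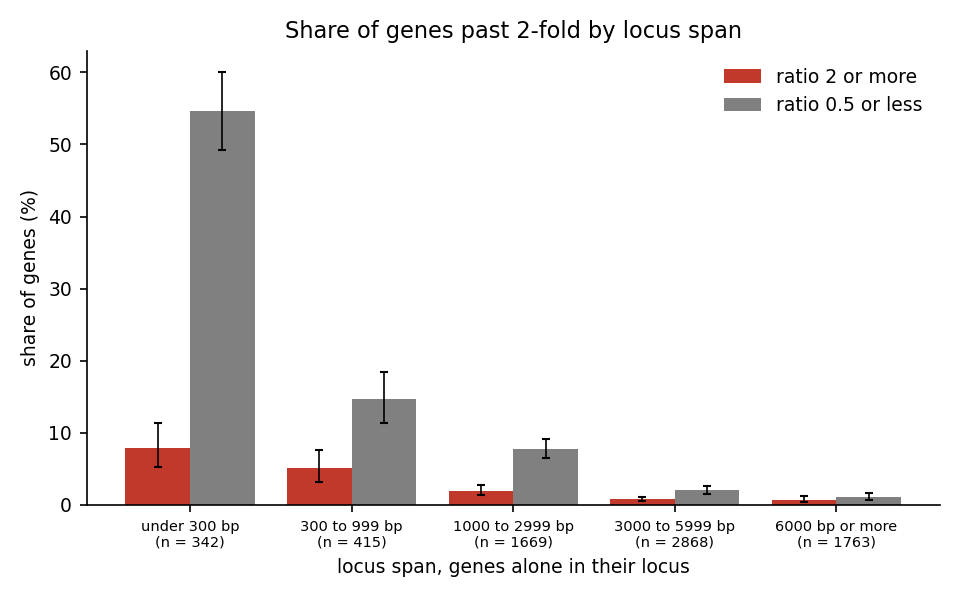
Share of genes (percent) with a ratio of 2 or more (red) and of 0.5 or less (grey) by the span of the locus, over the unnamed genes at 20 RPKM or more in wild type that are alone in their locus; bars start at 0 and error bars are exact 95% binomial intervals, for counting error only. From the shortest to the longest class the share goes from 7.89 to 0.681% for the red bars and from 54.7 to 1.08% for the grey bars.

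The 27 doubled genes in spans under 300 bp ran from 91 to 294 bp. They were at 20.5 to 427 RPKM in wild type and at 63.5 to 1839 RPKM in *lbl1*, with a median ratio of 2.61. None shared its locus, and neither did any other of the 342 genes with such a span. None had a match in RefSeq, but how many of the 342 had one was not counted.

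A stricter group remains when genes in shared loci, spans under 300 bp, genes without a RefSeq match and those whose test failed in the authors' comparison are left out. It holds 60 doubled genes among 4819 (1.25%). Their median levels were 38.4 RPKM in wild type and 102 in *lbl1*, with a median ratio of 2.58. After GRMZM2G312877, GRMZM2G127350 and GRMZM2G352618, the largest ratios belonged to GRMZM2G113967 on chromosome 4 (46.8 and 225 RPKM), *alt* (GRMZM2G088064) and GRMZM2G472248 on chromosome 3 (46.4 and 211 RPKM). These 6 were the only genes of the group at 4-fold or more, and 19 were at 3-fold or more. All 3 TIFY genes, *HRGP* and *MTD1* are in it, and *SnRK2.7* is not.

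The share of doubled genes was similar from chromosome to chromosome. It was lowest on chromosome 8 at 2.07% (19 of 917) and highest on chromosome 4 at 2.81% (28 of 995), and every chromosome's exact 95% interval held the value of 2.42%. These intervals are wide, for example 1.35 to 3.94% on chromosome 10, and they do not describe the spacing within a chromosome. On chromosome 6, which carries *lbl1*, the share was 2.14% (18 of 842). No doubled gene lay within 20 Mb of *lbl1* (17165362 to 17171793), where 99 of the 9772 genes were found, which allows a share of up to 3.03% (3 counts of 99) or, by the exact 95% interval used elsewhere, of up to 3.66%. In the same window 22 of the 99 genes (22.2%) were at 0.5-fold or less, with an interval of 14.5 to 31.7%, against 6.96% of all 9772. The closest doubled gene on the chromosome was GRMZM5G844844, 21.9 Mb away, and the next was GRMZM2G122059, 56.7 Mb away.

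Apart from the 3 shared loci, 1 pair of doubled genes lay within 20 kb of each other. It was GRMZM2G352618 (128455030 to 128455900) and GRMZM2G323888 (128465243 to 128466087) on chromosome 6, 9342 bp apart. They were at 28.4 and 149 RPKM and at 50.1 and 159 RPKM, and both are in the stricter group. The nearest expressed genes beyond the pair were GRMZM2G044442, at 16.9 and 15 RPKM, and GRMZM2G019180, at 15.1 and 35.3 RPKM. How many such pairs another set of 236 genes would hold was not counted, so the 1 pair is not read as few or many. The nearest expressed genes on each side of the doubled genes, each counted once and without overlapping or doubled genes, were 458 genes with a median ratio of 0.921. Of these flanking genes 6.11% were at 2-fold or more and 6.11% at 0.5-fold or less, next to 6.36% and 6.79% of all genes with at least 1 RPKM in each genotype. The 6.36% includes the doubled genes, which the flanking set leaves out, so the shares at 2-fold or more are not like for like. Whether flanking genes stood higher than other genes was not tested.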

How the data were processed

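The authors trimmed and mapped the reads of 2 wild-type and 2 *lbl1* RNA libraries to B73 RefGen_v2 with TopHat 1.2.0 and computed RPKM values with Cuffdiff 1.0.3 (versions from the submitters' processing notes). The deposited table holds 1 RPKM value per genotype, covering both samples. Its columns with the authors' own fold change, test statistic, p-value, q-value and call were not used; the status of their test served as a quality mark (228 of the doubled genes tested, 8 failed). Reads behind a value are not known, since the table lists no read numbers and no transcript lengths. Whether reads were counted by strand is not given in the sources used here. The 3 libraries of small RNA for each genotype were not used here.

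Ratios are RPKM in *lbl1* over RPKM in wild type, with no pseudocount. Locus starts are counted from 1: with 1 added, 452 of 14350 single loci had exactly the length of their RefSeq gene, against 55 with starts as listed. Genes named are the 12 largest ratios, the 12 highest levels in *lbl1*, list members with a name, doubled neighbours, genes within 20 Mb of *lbl1* and the 2 genes nearest each limit on either side; others are given as partners, flanking or family genes, chosen after their values were seen. A further gene of the meristem list is not reported here. The members and lists were chosen with earlier results of these data known. Python 3.11.15, pandas 2.3.3, scipy 1.17.1 and matplotlib 3.10.9 were used, and the steps were tested on simulated data. Promoter motifs were not searched, as no sequences were used here.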

Additional observations from a re-analysis of the deposited data

How the results depend on the processing

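With 1 value per genotype, no test could be run and no replicate left out, and 11 other limits or scalings were planned, with 2 added after seeing the data. The number of doubled genes was 774 at a ratio of 1.5 (7.92% of genes, median log2 ratio 0.83) and 30 at a ratio of 4 (0.307%, median 2.32), of which 0% were in the jasmonate and wound list. It was 421 (2.86%) from 10 RPKM, 96 from 50 RPKM and 4634 (11.4%, median 1.73) from any level above 0. In loci with 1 gene it was 114 (1.62%). Dividing by the median ratio of all genes gave 311 (3.18%), including all 236. A pseudocount of 1 RPKM, the 75th percentile scaling, leaving out chromosome 6, including named genes, and the 2 added settings (no spans under 300 bp, no failed tests) gave 209 to 265. Each scaling divides by a constant below 1, so no ratio could drop under it; with the pseudocount, 228 of the 236 stayed at 2-fold or more. No paired analysis was possible because the table has 1 column per genotype and no replicate values.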

Other observations

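Of the 21 named genes at 20 RPKM or more in wild type and at 2-fold or more in *lbl1*, 5 are given here. They were picked out after their values were seen, none was tested, and no theme is drawn from them. Of the 21, *GLU1* and *LKRSDH* had the largest ratios, 7.86 and 7.74, and both are among the 5. The rest of the 5 are not the next in order of ratio. Among the named genes left out are *gpc4* (GRMZM2G176307), at 65.6 and 373 RPKM, and *PHI1* (GRMZM2G065083), at 31.4 and 103 RPKM. *GLU1* (GRMZM2G016890), a beta-glucosidase gene whose enzyme frees the defence compounds called benzoxazinoids from their sugar, stood at 29.2 RPKM in wild type and at 230 in *lbl1*. *CYP71C2* (GRMZM2G167549) and *CYP71C1* (GRMZM2G172491), cytochrome P450 genes of benzoxazinoid synthesis, stood at 135 and 318 RPKM and at 34.9 and 82.7 RPKM, and each shares its locus with another gene. Other genes of benzoxazinoid synthesis were not counted, so these do not speak for the pathway. *LKRSDH* (GRMZM2G181362), for the enzyme that begins the breakdown of lysine, stood at 20.3 and 157 RPKM. *FER1* (GRMZM2G325575), a gene for the iron store ferritin, stood at 119 and 253 RPKM.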
